A study of Mus musculus with 3 samples.

Results

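Classical cadherins are calcium-dependent adhesion proteins whose outer domains bind the cadherins of a neighbouring cell and whose tails bind catenins. Beta-catenin or plakoglobin links the tail to an alpha catenin and so to actin, and p120 catenin keeps the cadherin at the membrane. During neurulation the neural plate exchanges E-cadherin for N-cadherin while it separates from the surface ectoderm, and migrating neural crest and mesenchyme use type II cadherins. The 10 genes described here are the classical cadherins *Cdh1*, *Cdh2*, *Cdh3*, *Cdh4*, *Cdh6* and *Cdh11* and the catenins *Ctnna1*, *Ctnna2*, *Ctnnd1* and *Jup*. They were taken by symbol from the 24062 genes in the count columns.

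RNA-Seq of the anterior head (rostrum) compared E9 embryos (18 to 22 somites) homozygous for *tuft*, a nonsense mutation in the DNA demethylase gene *Tet1*, with wild-type embryos, all of the 3H1 Balb strain in which *tuft* arose. The mutant heads used had curled neural folds, so that genotype and malformation cannot be told apart. RNA of 3 embryos was pooled into 1 library per genotype, and the labels list 2 *tuft* samples for the 1 *tuft* column of counts. There is therefore no replicate check of any difference, no p-value is given, and the 95% intervals cover counting error only.

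The wild-type library held 14251942 counts on genes and the *tuft* library 6433067, so the wild type was 2.22 times as deep. *Tet1*, the mutated gene, had 435 counts in wild type and 32 in *tuft*, which gave a fold change of 0.214 (0.145 to 0.307). Fold changes are *tuft* over wild type after TMM normalization (trimmed mean of M-values), and levels are normalized counts per 1000000 (CPM). A gene was past the 2-fold rule when its whole interval lay above 2 or below 0.5. Both libraries together gave 13979 genes 10 counts or more, and of these 47.2% were past the rule, 17.4% higher and 29.8% lower in *tuft*, with a median log2 fold change of -0.55. With library totals alone in place of TMM, every log2 fold change decreased by 0.39, and 75.3% of the genes past the rule were lower in *tuft* instead of 63.2%. Of the genes tested, 2609 were without a *tuft* count and 35 without a wild-type count.

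In the *tuft* library, RNA of E-cadherin, P-cadherin, cadherin 11 and alpha-N-catenin was lower than in wild type by more than 2-fold. With TMM, N-cadherin and R-cadherin were within counting error of wild type, which depended on the normalization. No gene of the group was higher by more than 2-fold. The lowest fold change of a gene with a *tuft* count was that of *Cdh11*, which was almost missing from *tuft*. All 10 genes had enough counts to be tested, and 4 were past the rule, all lower, against the 29.8% of all genes that were lower. The median log2 fold change of the 10 genes was -0.95. With 4 of 10 near that background, nothing is read from the count about the group as a whole, and the genes are described one by one.

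**Figure D1:**
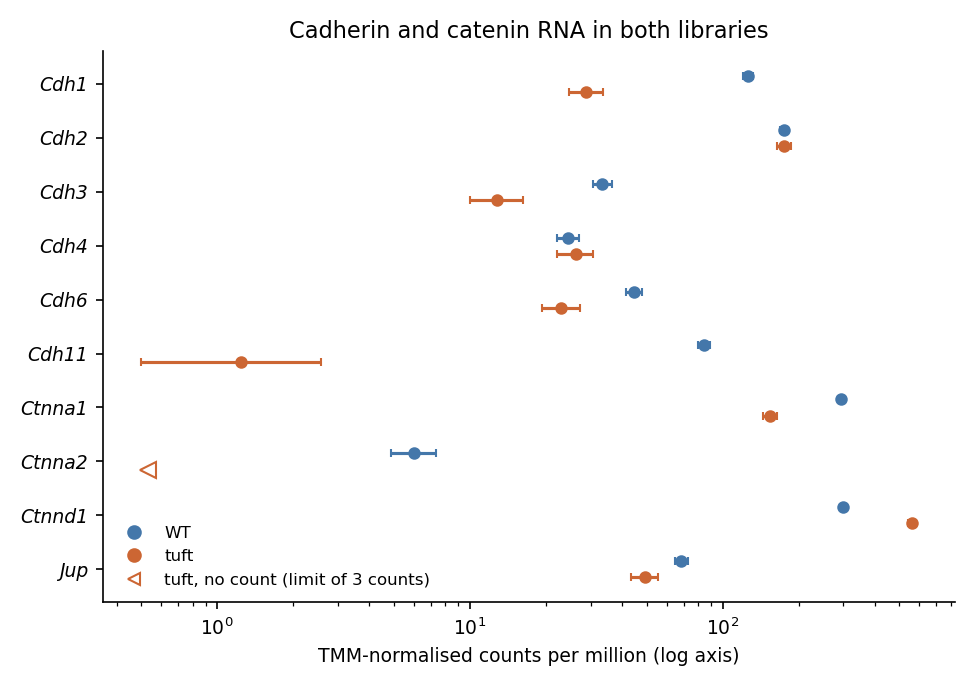
TMM-normalized CPM (log axis) of the 10 genes in the wild-type (blue) and *tuft* (orange) libraries, with 95% Poisson intervals for counting error. The *tuft* level of *Cdh11* is 1.25 against 84.5 in wild type, *Ctnna2* has no *tuft* count and is drawn at the limit of 3 counts, and the 2 points of *Cdh2* coincide.

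Among the type I cadherins, *Cdh1* encodes E-cadherin, the cadherin of epithelia such as the surface ectoderm and the yolk sac endoderm. In GRCm38 it spans 106603350 to 106670247 of chromosome 8. It had 2057 counts in wild type and 162 in *tuft*, or 126 and 28.9 normalized CPM. The fold change was 0.229 (0.194 to 0.269), or 4.36-fold lower in *tuft*. Of the 920 genes between 115 and 180 CPM in wild type (before TMM), 103 (11.2%) had 162 *tuft* counts or fewer, *Cdh1* included. That band was chosen after the values were seen.

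*Cdh3*, on the same chromosome from 106510852 to 106556911, encodes P-cadherin, which placenta and surface epithelia express. It had 546 counts in wild type and 72 in *tuft*, which gave a fold change of 0.384 (0.296 to 0.492). Its interval ended just below 0.5, and with DESeq2's size factors the gene was no longer past the rule (log2 fold change -1.33).

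Epithelial marker genes did not all move with these cadherins. For each marker list from here on, the background is the 29.8% of all genes that were lower and the 17.4% that were higher. Of 10 surface ectoderm genes, 2 were lower, 1 was higher and 7 were not past the rule, and their summed level was 616 CPM in wild type and 1112 in *tuft*. The lower ones were *Esrp1*, an epithelial splicing regulator (750 counts in wild type and 17 in *tuft*), and the keratin gene *Krt19* (234 and 15). The higher one was the keratin gene *Krt8* (2003 and 2158 counts, fold change 3.14, 2.95 to 3.34), the most abundant of the list in *tuft*. *Krt8* (123 CPM in wild type and 385 in *tuft*) and the keratin gene *Krt18* (181 and 350) gave most of the rise in the sum. *Epcam*, another epithelial adhesion gene, had a fold change of 1.30 (1.16 to 1.46). Of 11 genes of the yolk sac endoderm, 9 were lower (beside 29.8% of all genes) and none was higher. Their summed level was 2049 CPM in wild type and 327 in *tuft*. *Apoa4*, *Apoc2* and *Fgb* of that list had no count in *tuft*. The part of yolk sac RNA in the *Cdh1* value was not tested. In pooled tissue, fewer cells of a type and less RNA per cell cannot be told apart.

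*Cdh2* encodes N-cadherin, the main cadherin of the neural plate, and lies on chromosome 18 from 16588877 to 16809246. It had 2845 counts in wild type and 983 in *tuft*, or 174 and 175 normalized CPM, and its fold change was 1.01 (0.935 to 1.08). *Cdh4*, the gene of R-cadherin, which the developing brain and eye express, was also near its wild-type level. It had 400 and 147 counts, or 24.5 and 26.2 CPM, and its fold change was 1.07 (0.880 to 1.30). With library totals alone the log2 fold changes of *Cdh2* and *Cdh4* were -0.39 and -0.30, so how near they were to wild type depended on the normalization. *Cdh4* overlaps the annotated genes *Gm52541* and *Gm36066*. The neural genes around them varied more. Of 9 neural ectoderm genes 3 were higher, 1 was lower and 5 were not past the rule, with summed levels of 686 CPM in wild type and 1109 in *tuft*. *Sox2*, a neural progenitor factor, had a fold change of 0.958 (0.877 to 1.05), whereas the eye field gene *Rax* had 389 counts in wild type and 2 in *tuft*. The 3 higher genes were *Six3* (4.14, 3.81 to 4.50), *Hes5* (3.65, 3.15 to 4.23) and *Sox1* (3.16, 2.87 to 3.47).

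The type II cadherins were both below their wild-type level. *Cdh11*, the cadherin of mesenchyme (chromosome 8, 102632095 to 102785493), had 1381 counts in wild type and 7 in *tuft*. The fold change was 0.0148 (0.00592 to 0.0305), or 67.8-fold lower. Genes of a like level were seldom so depleted. Of the 1199 genes between 77.5 and 121 CPM in wild type (1.25-fold to either side of *Cdh11*, before TMM), 10 (0.834%) had 7 counts or fewer in *tuft*, itself included. This band was chosen after the values were seen.

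Other mesenchyme and neural crest genes moved in both directions. Of 10 mesenchyme and neural crest genes 3 were higher, 2 were lower and 5 were not past the rule, and their summed level was 305 CPM in wild type and 651 in *tuft*. *Twist1*, a mesenchymal transcription factor, was 3.14-fold higher (2.88 to 3.42) and *Sox10*, a neural crest factor, 11.1-fold higher (9.86 to 12.6). Most of the rise in the sum came from *Sox10* (20.4 CPM in wild type and 228 in *tuft*) and *Twist1* (62.5 and 196). *Pdgfra*, the PDGF receptor of mesenchyme, was lower, with 711 counts in wild type and 69 in *tuft*, and *Prrx2* had 301 and none. *Foxd3*, a neural crest factor, had 14 and none.

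*Cdh6*, a cadherin of the neural folds and early neural crest (chromosome 15, 13028699 to 13176407), had 731 counts in wild type and 129 in *tuft*. Its fold change of 0.514 (0.423 to 0.620) excluded 1 but was not past the rule. With library totals alone it was (log2 fold change -1.35). It overlaps the annotated genes *Gm35018* and *Gm46513*.

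**Figure D2:**
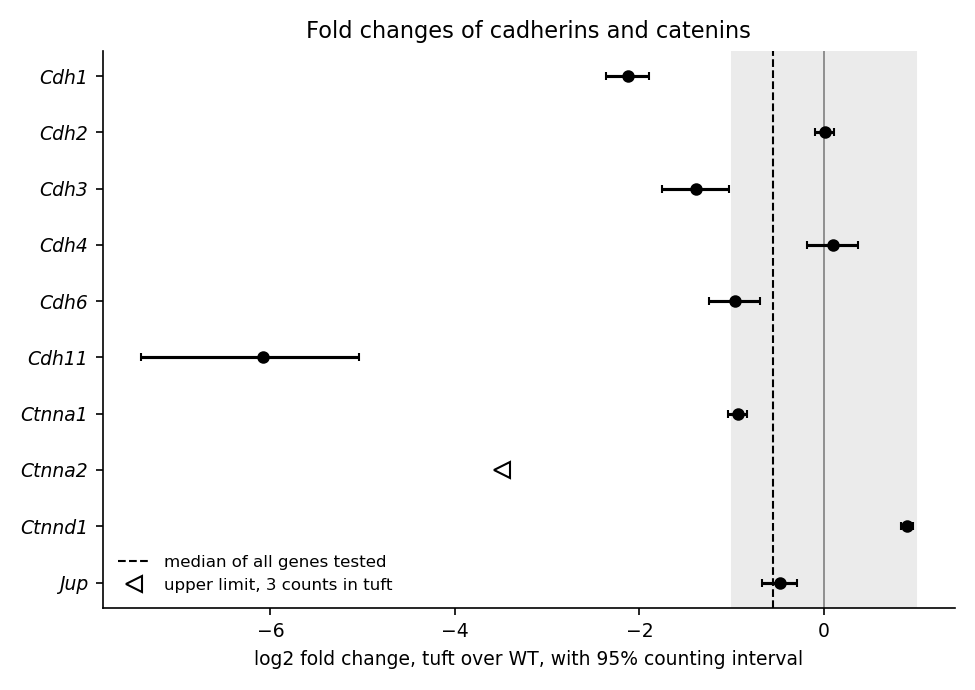
Log2 fold change (*tuft* over wild type) of the 10 genes with 95% counting intervals, the span from -1 to 1 shaded and the median of all tested genes (-0.55) dashed. *Cdh1*, *Cdh3* and *Cdh11* lie wholly left of the shaded span, the limit of *Ctnna2* with 3 counts set for *tuft* does so too, and *Ctnnd1* is the one gene whose whole interval lies right of 0.

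The catenins did not move together. The alpha catenins, which join the complex to actin, were below wild type. *Ctnna1*, the alpha-E-catenin gene of most tissues (chromosome 18, 35118902 to 35254776), had 4802 counts in wild type and 864 in *tuft*, or 294 and 154 CPM. The fold change was 0.524 (0.487 to 0.563), not past the rule, and past it with library totals alone (log2 fold change -1.33). *Ctnna2*, the alpha-N-catenin gene of neurons (chromosome 6, 76881637 to 77979815), had 98 counts in wild type and none in *tuft*. By the upper end of its 95% interval (0.112) it was at least 8.95-fold lower, and 3 counts set for *tuft* in place of 0 would make it 11.2-fold lower. At its level a *tuft* count of 0 was common: 249 of the 853 genes between 5.50 and 8.60 CPM in wild type (29.2%) had none. *Ctnna2* overlaps *Lrrtm1*, which had 25 counts in wild type and 5 in *tuft*, and *Ctnna1* overlaps *Lrrtm2*, with 16 and 0. These overlaps are of whole gene spans, and shared exon bases were not examined.

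*Ctnnd1*, the p120 catenin gene (chromosome 2, 84587096 to 84658977), had the highest fold change of the 10. It had 4899 counts in wild type and 3152 in *tuft*, or 300 and 562 CPM, and its fold change was 1.87 (1.79 to 1.96). Its interval ended below 2, so it was not past the rule, and its log2 fold change ran from 0.50 to 0.95 over the 5 normalizations. Of the 313 genes between 275 and 430 CPM in wild type (before TMM), 40 (12.8%) had a fold change as high, *Ctnnd1* included. That band was chosen after the values were seen. *Jup*, the plakoglobin gene of adherens junctions and desmosomes (chromosome 11, 100368856 to 100397839), had 1119 and 276 counts, and its fold change was 0.718 (0.627 to 0.820). *Ctnnb1*, the beta-catenin gene, which is not one of the 10, had 23142 counts in the wild-type library and 7790 in the other, with a fold change of 0.980 (0.955 to 1.01).

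Because TET1 acts on methylated cytosines at CpG sites, the promoters of the catenins at both ends of this range are shown. RefSeq sequences of GRCm38.p6, from 250 bases before to 50 bases after the start, were found for 4 of the 10 genes (*Cdh6*, *Ctnna2*, *Ctnnd1* and *Jup*). No sequence is shown for *Cdh1*, *Cdh2*, *Cdh3*, *Cdh4*, *Cdh11* or *Ctnna1*. Both promoters below are on the minus strand, at chr6:77979618-77979917 for *Ctnna2* and at chr2:84658928-84659227 for the first of the 2 starts of *Ctnnd1*, and capitals mark the CpG sites.
Ctnna2: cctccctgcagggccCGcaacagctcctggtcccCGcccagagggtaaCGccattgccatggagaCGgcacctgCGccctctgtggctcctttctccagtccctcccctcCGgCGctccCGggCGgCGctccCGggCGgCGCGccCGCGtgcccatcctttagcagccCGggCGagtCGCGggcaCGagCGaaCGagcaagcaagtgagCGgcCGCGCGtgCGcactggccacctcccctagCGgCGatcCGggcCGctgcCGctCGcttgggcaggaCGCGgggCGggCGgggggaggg
Ctnnd1: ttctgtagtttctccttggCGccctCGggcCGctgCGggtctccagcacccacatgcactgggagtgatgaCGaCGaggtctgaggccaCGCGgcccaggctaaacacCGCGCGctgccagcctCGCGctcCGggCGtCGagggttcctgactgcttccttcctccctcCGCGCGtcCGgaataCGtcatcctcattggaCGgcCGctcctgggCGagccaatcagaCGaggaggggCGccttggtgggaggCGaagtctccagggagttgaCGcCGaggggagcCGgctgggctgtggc

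Both promoters were rich in CpG sites. Whether CpG content goes with the fold change was not tested. The *Ctnna2* promoter held 38 CpG sites and that of *Ctnnd1* 30. Of 32851 promoters of this length, with a median of 7 sites, 4.95% held as many as *Ctnna2* and 11.7% as many as *Ctnnd1*. The promoter of *Jup* had 14 sites, that of *Cdh6* 8, and the second start of *Ctnnd1* 3. The E-box CACCTG, searched on both strands, the motif that SNAI and ZEB repressors bind, occurred once in the *Ctnna2* promoter and in none of the other 4. Of all promoters 20.2% held it. These are counts of letters, and methylation was not measured in these libraries.

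**Figure D3:**
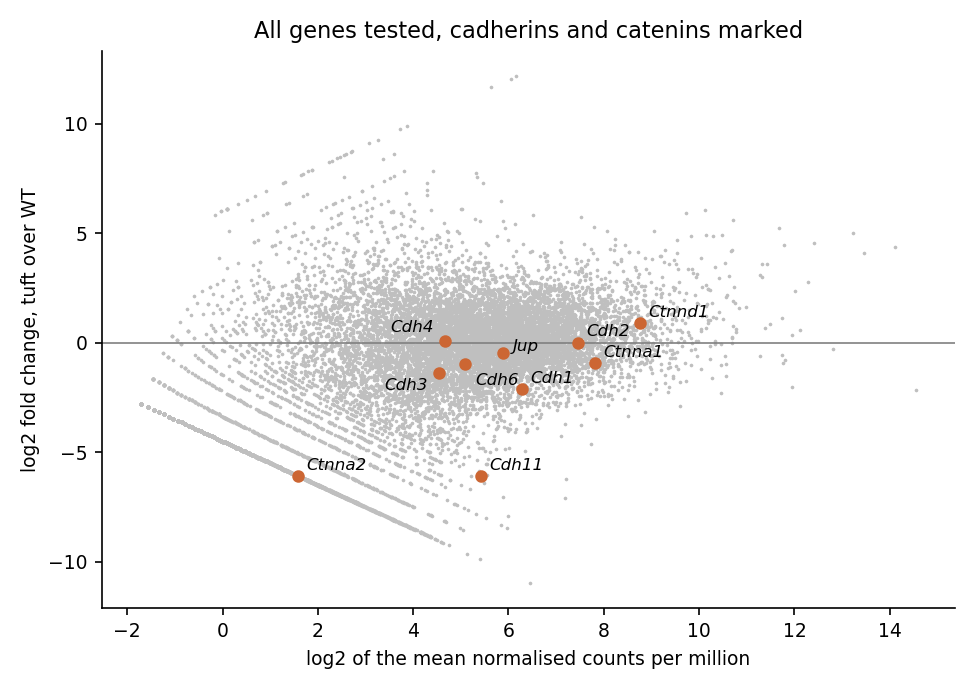
Log2 fold change (*tuft* over wild type) against the log2 mean of the normalized CPM for the 13979 genes tested (grey), with the 10 cadherins and catenins in orange. *Cdh11* lies at -6.08 below the cloud of its expression level, and *Ctnna2* lies on the lowest diagonal band, which holds the genes with no *tuft* count (0 replaced by 0.5).

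Within a library, shares do not depend on how the libraries were scaled to each other. The 6 cadherins had 7960 counts in wild type and 1500 in *tuft*. *Cdh2* made up 35.7% of them in wild type (34.7 to 36.8, exact binomial interval) and 65.5% in *tuft* (63.1 to 67.9). The share of *Cdh1* was 25.8% (24.9 to 26.8) and 10.8% (9.27 to 12.5), and that of *Cdh11* 17.3% (16.5 to 18.2) and 0.467% (0.188 to 0.959). *Cdh4* had 5.03% of the cadherin counts in wild type and 9.80% in *tuft*, *Cdh3* 6.86% and 4.80%, and *Cdh6* 9.18% and 8.60%. The intervals of *Cdh6* overlapped, and those of the other 5 did not. The shares depend on each other, since a lower count of any cadherin raises the shares of the rest. The normalized level of *Cdh2* was 174 CPM in wild type and 175 in *tuft*. For each *Cdh1* count there were 1.38 of *Cdh2* in wild type (1.31 to 1.46) and 6.07 in *tuft* (5.13 to 7.21). For each *Ctnna1* count there were 1.02 of *Ctnnd1* in wild type (0.980 to 1.06) and 3.65 in *tuft* (3.38 to 3.94). These ratios were chosen after the values were seen. *Ctnna2* was 2.00% of the alpha catenin counts in wild type (1.63 to 2.43), and in *tuft* it had 0 of 864 counts, for which the exact interval ends at 0.426% and the limit of 3 counts is 0.347%.

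**Figure D4:**
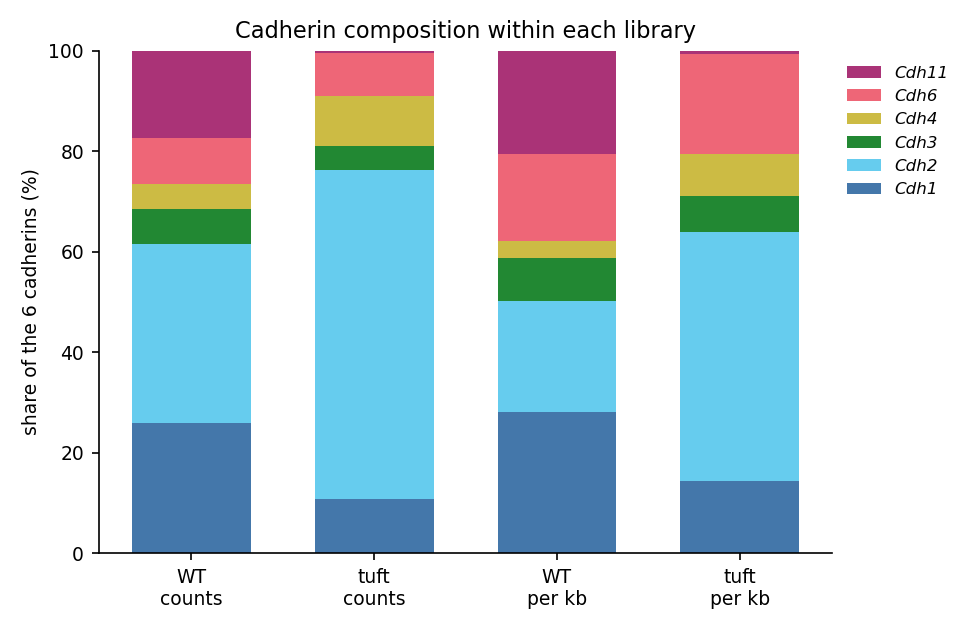
Shares (%) of the 6 cadherins within each library, from the counts (left pair of bars) and from counts per kilobase of exons (right pair). *Cdh2* widens from 35.7% in wild type to 65.5% in *tuft* by counts and from 22.0% to 49.5% per kilobase, while *Cdh11* narrows to a thin band.

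The order of the cadherins also differed when levels were set per kilobase of exons (normalized CPM per kilobase). In wild type the highest cadherin level was that of *Cdh1* at 27.5 (26.3 to 28.7), followed by *Cdh2* at 21.6 (20.8 to 22.4) and *Cdh11* at 20.05 (19.0 to 21.1). The intervals of the latter pair overlapped. *Cdh6* at 17.0, *Cdh3* at 8.36 and *Cdh4* at 3.39 followed, each apart from the next. In *tuft* the highest level was that of *Cdh2* at 21.7 (20.4 to 23.1), followed by *Cdh6* at 8.73, *Cdh1* at 6.31, *Cdh4* at 3.63, *Cdh3* at 3.21 and *Cdh11* at 0.296. There the intervals of *Cdh4* and *Cdh3* overlapped, and the interval of *Cdh6* (7.29 to 10.4) overlapped narrowly with that of *Cdh1* (5.38 to 7.36). Among the catenins *Ctnna1* was above *Ctnnd1* per kilobase in wild type (79.5 and 41.0), and *Ctnnd1* was above *Ctnna1* in *tuft* (76.8 and 41.6). *Ctnnb1* stood above both, at 278 in wild type and 272 in *tuft*. The exon lengths are those of GENCODE M1 and not of the authors' gene models, and that of *Cdh6*, 2632 bases, is the shortest of them.

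The wider adhesion genes were scattered in both directions. Of 64 genes in 7 lists, 55 could be tested, 12 were higher, 17 were lower and 26 were not past the rule. Of all genes tested, 17.4% were higher and 29.8% lower, so nothing is read from these counts about adhesion genes as a group. The median log2 fold change of the 55 was -0.06, against -0.55 for all genes tested. With library totals alone, 8 were higher and 20 lower (7 and 20 without *Rn45s*, mitochondrial and globin genes in the totals), and *Cdh24* and *Pvrl3* were among those no longer past the rule.

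Among 12 other classical cadherins, 7 could be tested, of which 4 were lower and 1 was higher, beside 29.8% and 17.4% of all genes. *Cdh24* had 285 counts in wild type and 291 in *tuft*, and was higher with a fold change of 2.97 (2.52 to 3.51). *Cdh8*, *Cdh10* and *Cdh15* were weak in wild type (60, 41 and 57 counts) and had 1, 0 and 0 in *tuft*. *Cdh5*, the VE-cadherin gene of endothelium, was lower, with 1376 and 161 counts and a fold change of 0.341 (0.288 to 0.401). Of 8 endothelial genes, *Cdh5* included, 3 were lower and 1 was higher, with summed levels of 351 CPM in wild type and 189 in *tuft*, and *Pecam1* had 443 counts in wild type and none in *tuft*.

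Of the other catenins, 5 of 6 could be tested, with 2 lower and 1 higher, beside 29.8% and 17.4% of all genes. *Arvcf*, a relative of p120 catenin, was lower (fold change 0.326, 0.285 to 0.372), and so was *Ctnnal1*, which encodes the alpha catenin relative catulin (0.206, 0.152 to 0.275). *Ctnnd2*, the neural delta catenin gene, was higher, with 321 counts in wild type and 364 in *tuft* (3.30, 2.83 to 3.85).

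The 12 tested linkers between the junction and the cytoskeleton were split, with 5 lower and 2 higher, beside 29.8% and 17.4% of all genes. *Plekha7*, whose protein binds p120 catenin, had 715 counts in wild type and 23 in *tuft* (0.0937, 0.0590 to 0.142), and *Tjp1*, which encodes the scaffold ZO-1, had 1826 and 131 (0.209, 0.174 to 0.2495). *Zyx*, the gene of the actin regulator zyxin, was 5.57-fold higher (5.19 to 5.98) and *Tln1*, which encodes talin, 3.85-fold (3.72 to 3.99). *Vcl*, the vinculin gene, had a fold change of 1.36 (1.23 to 1.49) and was named after its value was seen. The list of nectins, adhesion proteins of the same junctions, had 5 genes, with *Pvr* a nectin-like relative. In it *Pvrl3* was higher (2.77, 2.48 to 3.09), *Pvr* was lower (0.226, 0.140 to 0.350) and 3 were not past the rule.

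Of the 12 genes for cadherin processing and turnover, 6 were higher and 1 was lower, beside 17.4% and 29.8% of all genes. Their median log2 fold change was 1.11. The list was chosen with earlier results of these data known, so nothing is read from these counts about it as a group. *Ptprm*, a receptor phosphatase that associates with cadherins, was 5.28-fold higher (4.74 to 5.89), *Rab11a* of the recycling endosome 3.42-fold (3.10 to 3.79) and the protease gene *Adam15* 3.10-fold (2.74 to 3.49). *Adam10*, whose protease sheds E- and N-cadherin, had 533 counts in each library, a fold change of 2.91 (2.58 to 3.29), and was named after its value was seen. *Numbl*, the gene of an endocytic adaptor, had 209 counts in wild type and none in *tuft*. With library totals alone 4 of the 12 were higher, *Adam10* not among them, beside 1730 of the 13979 genes tested. With totals that leave out *Rn45s*, mitochondrial and globin genes 3 were, beside 1717.

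Of the desmosome genes 6 of 7 could be tested, with *Pkp2* (0.159, 0.103 to 0.235) and *Dsp* (0.304, 0.252 to 0.364) lower and 4 not past the rule. Of all genes, 29.8% were lower and 17.4% higher. Among 8 tested transcription factors of the epithelial to mesenchymal transition, several of which repress *Cdh1*, 2 were lower and 1 was higher, near those shares. *Snai1* had 467 counts in wild type and 41 in *tuft* (0.256, 0.181 to 0.352) and *Snai2* had 36 and none, whereas *Twist1* was higher. *Zeb1* and *Zeb2*, with fold changes of 0.845 (0.702 to 1.01) and 1.06 (0.874 to 1.28), were named after their values were seen.

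**Figure D5:**
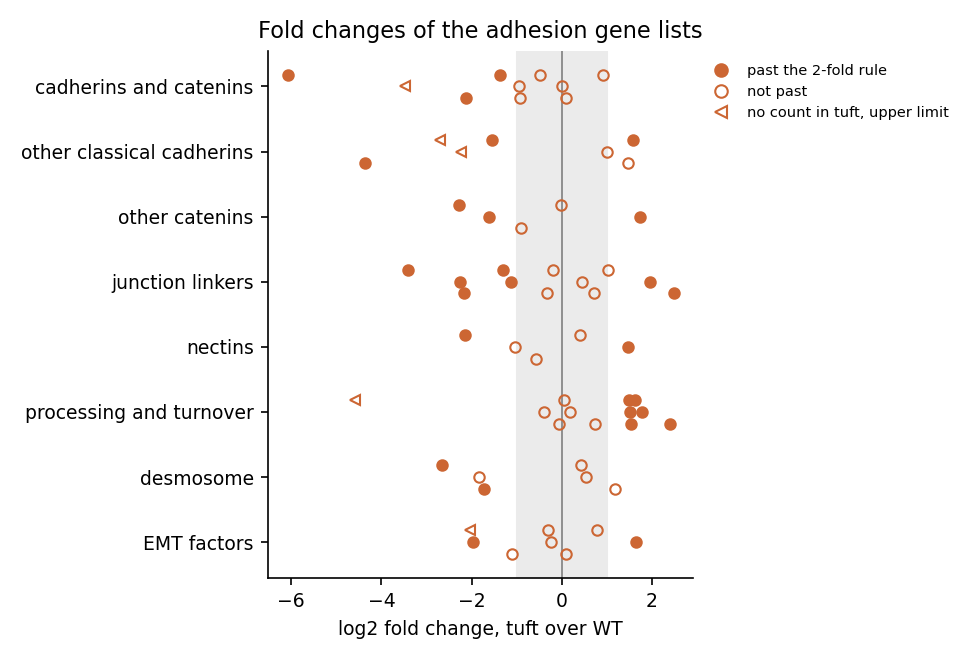
Log2 fold change (*tuft* over wild type) of each tested gene of the 10 cadherins and catenins and of 7 wider adhesion lists, filled where the gene is past the 2-fold rule, with left-pointing triangles for the upper limit of genes with no *tuft* count. The 6 filled circles of the processing and turnover list lie together on the right, with *Ptprm* the highest at 2.40, and each list has at least 1 filled circle or triangle on the left of the shaded span.

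Genes of other tissues complete the picture of what the libraries held. Of 8 tested erythroid genes 3 were higher and 3 lower, with summed levels of 2802 CPM in wild type and 40733 in *tuft*, most of it from *Hbb-y* and *Hba-x*. Of 6 foregut endoderm genes 2 were higher and 1 was lower (58.2 CPM in wild type and 266 in *tuft*), with *Hhex* at 0 in *tuft*. Heart genes were near 0 in both (3.43 and 0.356 CPM for 6 genes). The part of these tissues in the cadherin values was not tested.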

How the data were processed

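RNA-Seq counts of 1 *tuft* and 1 wild-type library, each from the pooled rostrum RNA of 3 embryos, were analyzed. The deposited values are raw read counts, 1 per gene symbol, which the authors made from poly-A-selected, single-end Ion Proton reads, trimmed with PRINSEQ, aligned to UCSC mm10 with TopHat2 2.0.14 and Bowtie2 2.2.5 and counted with HTSeq (version, strand setting and gene models not given in the sources used here). The count of reads that htseq-count set aside as ambiguous between genes was 0.667% of entries in *tuft* and 0.526% in wild type. The 5 summary lines of htseq-count were left out. Alignments that were not unique made up 59.2% of entries in *tuft* and 51.4% in wild type. The files name only the genotype, and the *tuft* column was assigned to the group and to neither of its 2 samples.

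Libraries were normalized by TMM, as in the study, with edgeR 4.0.16 in R 4.3.3 (factor of *tuft* over wild type 0.761). NOISeq-sim, the study's caller, scores genes against libraries drawn from the same counts and was not used. Fold changes carry 95% Clopper-Pearson intervals of the counts (scipy 1.17.1), and a count of 0 was taken to leave room for 3 counts. Genes with at least 10 counts in the libraries together were tested against the 2-fold rule, and the code was tested on simulated data. The intervals cover the counting error of reads only. Reads carry no molecular identifiers, so copies of the same molecule could not be told apart, and the intervals may be too narrow.

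The named genes are the 10 members, *Ctnnb1*, up to 4 genes per adhesion list that were past the rule and furthest from 1, and markers. Abundant or absent markers were planned. *Rax*, *Esrp1*, *Krt19*, *Epcam* and others were neither the most abundant of their list nor absent, so markers were not chosen blind to their values. Members and lists were chosen with earlier results of these data known. Alternatives were library totals with and without *Rn45s*, mitochondrial and globin genes, upper quartile and DESeq2 1.42.0 size factors, other count filters, folds of 1.5 and 4, and the point fold change.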

Additional observations from a re-analysis of the deposited data

How the results depend on the processing

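The directions of *Cdh1*, *Cdh3*, *Cdh6*, *Cdh11*, *Ctnna1*, *Ctnna2* and *Jup* (lower) and *Ctnnd1* (higher) were the same under all 5 normalizations, whereas those of *Cdh2* and *Cdh4*, near 0, were not. Each normalization shifts all log2 fold changes alike, by 0.05 to -0.40 from TMM, so genes further from 0 could not change direction. The median of all genes tested was also below 0 under each (-0.51 to -0.96). With TMM *Jup* was at -0.48, near that median (-0.55). The number of the 10 genes past the rule was 4 with TMM and the upper quartile, 3 with DESeq2's size factors and 6 with library totals, with or without *Rn45s*, mitochondrial and globin genes. Of all genes tested, 47.2%, 47.6%, 47.3%, 50.1% and 50.2% were past it in that order. At 1.5-fold 7 of the 10 genes were past the rule, where *Ctnnd1* joined as higher, beside 62.4% of all genes. At 4-fold 2 were (*Cdh11* and *Ctnna2*), beside 22.8% of all genes. Nothing is read from these counts about the 10 genes as a group. At 4-fold, 3188 of all genes and 7 of the wider adhesion genes were past it, since fewer genes can pass a stricter rule. The filters on low counts changed no call of the 10 genes.

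Per kilobase of exons the cadherin shares in wild type and *tuft* were 28.1% and 14.4% for *Cdh1*, 22.0% and 49.5% for *Cdh2*, 8.54% and 7.32% for *Cdh3*, 3.46% and 8.27% for *Cdh4*, 17.4% and 19.9% for *Cdh6* and 20.5% and 0.674% for *Cdh11*. In wild type *Ctnna1* was 98.9% and *Ctnna2* 1.07% of the alpha catenins on that scale. No paired analysis was possible because there is 1 library per genotype, and for the same reason no replicate could be left out. A *tuft* level under 0.535 normalized CPM, the worth of 3 counts, cannot be told from 0.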
